A study of Mus musculus with 11 samples.

Results

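Dense clusters of Foxp3 peaks were stretches of the mouse genome that carried 3 or more Foxp3 binding peaks. They were defined by chaining neighbouring peaks on a chromosome whenever their midpoints lay at most 10 kb apart. Of all Foxp3 peaks, 455 (15.8%) were members of 128 such clusters. The rest were 658 peaks in 329 clusters of 2 and 1773 single peaks. The peak positions themselves chose the members, so the number, span and spacing of the Foxp3 peaks are given as a description, with no test.

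Binding was mapped by chromatin immunoprecipitation followed by sequencing (ChIP-seq) in primary CD4 T cells from lymph nodes and spleen of mice about 8 weeks old. Cells carrying Foxp3, seen by a green fluorescent protein (GFP) reporter, are called Treg here, and Foxp3-negative CD4 T cells are called CD4. The Foxp3 list came from 3 Treg libraries, of which 2 were technical replicates, combined by the authors. Elf1 and Ets1 were mapped in Treg and in CD4 cells and Cbfb in Treg cells, with 1 library each, so no p-values are given and differences between lists could not be checked in replicates. The labels state no strain, genotype beyond the GFP reporter, or number of animals behind a library. The 2 Treg input libraries and the CD4 Cbfb library, which its label describes as low in quality, were not analysed here. Binding lists hold no expression values, so the labelled cell types were not checked against markers.

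Foxp3 is the forkhead transcription factor that defines regulatory T cells, which restrain immune responses. Elf1 and Ets1 are transcription factors of the ETS family, which recognise a short GGAA core and are active throughout the T cell lineage. Cbfb does not bind DNA itself and stabilises Runx factors on their sites. Genes with a role in cell identity are often controlled by several enhancers close together, so that binding sites of lineage factors can recur over a few kilobases. Coordinates are those of the files, in build mm9. The clusters are named by position, without genes or sequences, because no annotation or genome of that build was used.

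The clusters ran from 217 to 30898 bp between the first and the last peak midpoint, with a median of 6872.5 bp and the middle 50% between 2898 and 10487 bp. Clusters with 3 peaks were the most frequent, with 79, followed by 35 with 4 peaks, 9 with 5, 3 with 6, 1 with 7 and 1 with 8. The median span was 4647 bp for clusters with 3 peaks, 8309 bp for those with 4 and 19805 bp for the 14 with 5 or more. Only 16 clusters were at most 1 kb long, 75 were between 1 and 10 kb and 37 were longer, of which 9 exceeded 20 kb.

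**Figure D1:**
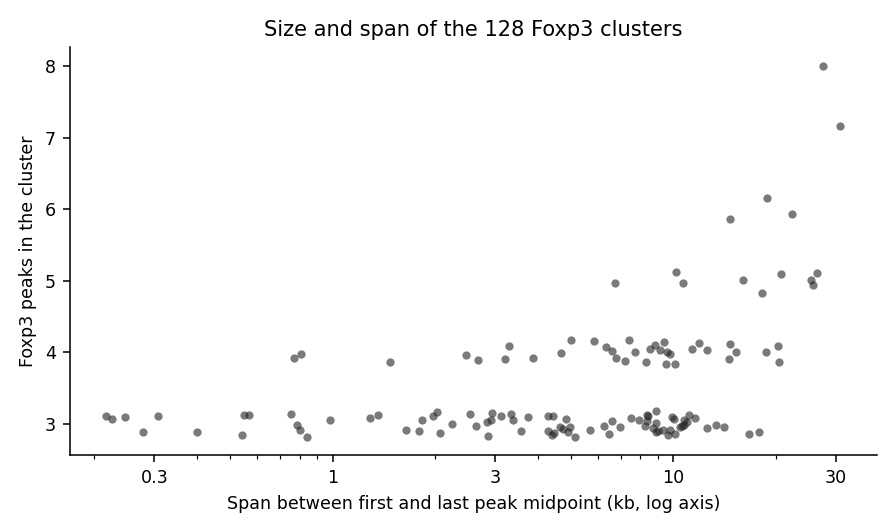
Span (horizontal, kb on a log axis) and number of Foxp3 peaks (vertical, points shifted slightly at random so that they do not hide each other) of each of the 128 clusters. Clusters with 3 or 4 peaks ranged from 217 to 20469 bp, and the 14 clusters with 5 or more peaks from 6734 to 30898 bp.

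Spacing inside the clusters was uneven. The 327 gaps between neighbouring members had a median of 2058 bp and ran from 101 to 9994 bp. Of these gaps, 42 (12.8%) were under 200 bp, which is the width of every Foxp3 interval, so the intervals of those neighbours overlapped. Another 72 gaps (22.0%) were between 200 bp and 1 kb, 132 (40.4%) between 1 and 5 kb and 81 (24.8%) between 5 and 10 kb. Overlapping neighbours occurred in 32 clusters and involved 75 member peaks. In 5 clusters all peaks overlapped in a chain, as in the shortest cluster of all, on chromosome 11 from 63798269 to 63798686. The midpoints of its 3 intervals were 105 and 112 bp apart. All 3 lay within 200 bp of the same single position of each of Treg Elf1, CD4 Elf1, Treg Ets1 and CD4 Ets1. When overlapping intervals were joined, a setting chosen after seeing the data, 107 clusters were left, and 21 of the 128 kept fewer than 3 separate peaks.

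The limit of 10 kb had no natural break beside it. The largest gaps that were joined measured 9928, 9991 and 9994 bp, and the smallest that were not joined 10079, 10107 and 10123 bp. With a limit of 9 kb there were 122 clusters with 426 peaks, and with 11 kb there were 140 clusters with 498 peaks. The nearest Foxp3 peak outside a cluster was within 20 kb for 30 clusters and within 100 kb for 87, and the median distance was 43635 bp.

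Clusters were found on 19 chromosomes. Chromosome 11 held 16 clusters with 56 peaks, chromosome 9 held 11 with 43 peaks, and chromosomes 10 and 2 held 10 each. As a share of the Foxp3 peaks on a chromosome, members made up 24.6% on chromosome 8, 23.8% on chromosome 9, 22.6% on chromosome 11 and 22.4% on chromosome 17, against 6.15% on chromosome 18, 7.96% on chromosome 15 and 9.76% on chromosome 14. None of the 22 Foxp3 peaks on the X chromosome was in a cluster.

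Foxp3 peaks formed about as many clusters as the strongest Ets1 positions of the same cells, and many more than those of Elf1 or Cbfb. For this comparison each other list was ranked by score, shortened to the length of the Foxp3 list and chained by the same rule. Treg Ets1 gave 119 clusters with 474 positions, 16.4% of its list (exact Clopper-Pearson 95% interval 15.1 to 17.8), beside 15.8% (14.5 to 17.1) for Foxp3. CD4 Ets1 gave 72 clusters with 266 positions, or 9.22% (8.19 to 10.3). Elf1 gave 13 clusters in Treg, with 1.52% (1.11 to 2.04) of its positions, and 14 in CD4, with 1.56% (1.14 to 2.08). Treg Cbfb gave 8 clusters with 1.14% (0.788 to 1.60). These intervals cover counting error only, and the neighbouring positions of a cluster are not independent. Overlapping Foxp3 intervals were counted separately here. With them joined, a setting chosen after seeing the data, Foxp3 had 107 clusters, fewer than the 119 of Treg Ets1.

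The place of Ets1 in this order depended on how its positions were ranked. With the highest fold enrichment in place of the highest score, Treg Ets1 gave 47 clusters and CD4 Ets1 gave 95, so the order of the 2 cell types turned round. Elf1 then gave 20 clusters in each cell type and Cbfb 3. The Foxp3 list has no score, so it could not be ranked in this way.

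**Figure D2:**
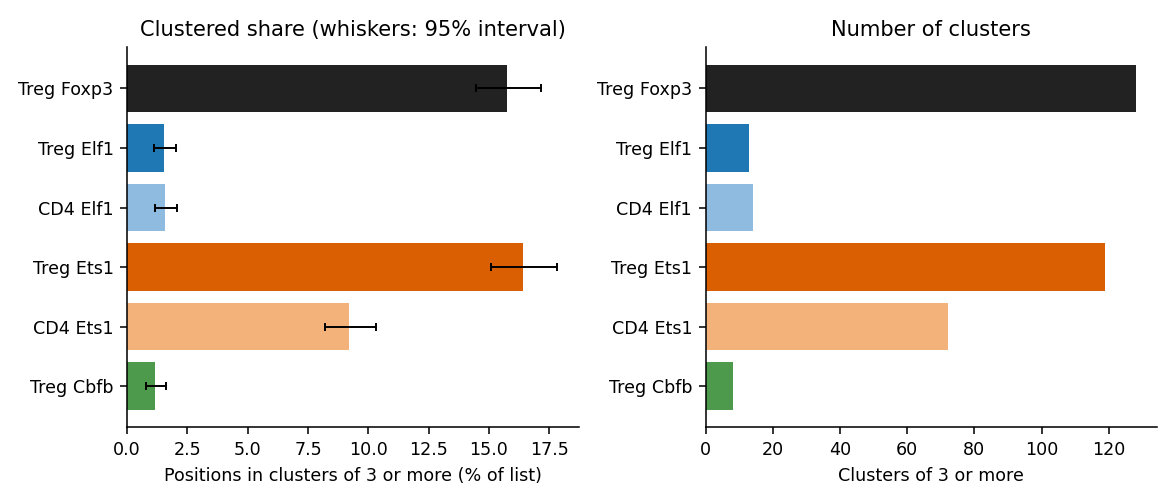
Share of the positions in lists of equal length that lay in clusters of 3 or more (left, %, whiskers give the exact 95% interval) and the number of such clusters (right) for the Foxp3 list and the 5 other libraries. Foxp3 and Treg Ets1 had 128 and 119 clusters, CD4 Ets1 72, and the Elf1 and Cbfb lists 14 or fewer. Overlapping Foxp3 intervals are counted separately.

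Ets1 clusters were tighter and included larger groups than Foxp3 clusters. The median span of a Treg Ets1 cluster was 4657 bp and of a CD4 Ets1 cluster 5257.5 bp, against 6872.5 bp for Foxp3. The median gap within clusters was 1186 bp for Treg Ets1 and 1417.5 bp for CD4 Ets1, against 2058 bp for Foxp3. There were 30 Treg Ets1 clusters with 5 or more positions, beside 14 for Foxp3 and 10 for CD4 Ets1. The spacing is not measured on equal terms, since no deposited list other than Foxp3 holds neighbours closer than 199 bp, while 81 neighbouring Foxp3 peaks across the genome were under 200 bp apart. The Treg Ets1 cluster with the most positions held 14, on chromosome 9 between 32503678 and 32560259. It contained 39 of the top 10000 Treg Ets1 positions and 23 of those of CD4 Ets1, but only 2 Foxp3 peaks.

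Few Foxp3 peaks of any kind lay in the Ets1 clusters built from the shortened lists. From the whole Foxp3 list, 125 peaks lay in Treg Ets1 clusters and 73 in CD4 Ets1 clusters. Whether dense Foxp3 clusters touched Ets1 clusters more or less often than other Foxp3 groups was not tested. With windows that reached 200 bp beyond the outermost peaks, 22 of the 128 Foxp3 clusters (17.2%) touched a Treg Ets1 cluster, which was 18.5% of the 119 Treg Ets1 clusters. For CD4 Ets1, 15 Foxp3 clusters (11.7%) were touched, by 20.8% of its 72 clusters. Treg Elf1 and CD4 Elf1 clusters touched 2 Foxp3 clusters each, and Cbfb clusters touched 0. At least 1 Foxp3 peak lay in 64 of the Treg Ets1 clusters (53.8%), in 36 of the CD4 Ets1 clusters (50%), in 9 of the 13 Treg Elf1 clusters, in 8 of the 14 CD4 Elf1 clusters and in 1 of the 8 Cbfb clusters. In the other direction, 90 Foxp3 clusters (70.3%) held a position of the shortened Treg Ets1 list, but only 15 held 3 or more. For CD4 Ets1 the numbers were 89 (69.5%) and 12. Shares over all Foxp3 groups were not computed for these counts. In the longer lists of 10000 positions, 120 of the clusters held a Treg Ets1 position and 122 a CD4 Ets1 position.

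Most Foxp3 clusters held Elf1 and Ets1 positions from the top of the lists ranked by score. For each library the top 10000 positions by score were counted in windows from 200 bp before the first to 200 bp after the last interval, 1093.5 kb in all. Treg Elf1 had a position in 114 of the 128 clusters (89.1%, exact 95% interval 82.3 to 93.9) and CD4 Elf1 in 111 (86.7%, 79.6 to 92.1). Treg Ets1 had one in 120 clusters (93.8%, 88.1 to 97.3) and CD4 Ets1 in 122 (95.3%, 90.1 to 98.3). Treg Cbfb had one in only 38 (29.7%, 21.9 to 38.4). Over all 2230 Foxp3 groups, single peaks and clusters of 2 included, the shares built the same way were 58.8% for Treg Elf1, 64.3% for CD4 Elf1, 65.0% for Treg Ets1, 74.7% for CD4 Ets1 and 13.5% for Treg Cbfb. The clusters have longer windows and more peaks than those groups, so the 2 sets of shares are not matched. With every position at a false discovery rate (FDR) of at most 0.01 in place of the top 10000, the clusters with a Cbfb position numbered 99. The lists at that limit were of unequal length. They held 157731 positions for Treg Elf1, 53580 for CD4 Elf1, 61761 for Treg Ets1, 42040 for CD4 Ets1 and 121632 for Treg Cbfb. Counts at that limit are therefore not matched between lists. When fold enrichment chose the top 10000, the clusters with a position numbered only 59 for Treg Elf1, 87 for CD4 Elf1, 50 for Treg Ets1, 79 for CD4 Ets1 and 12 for Cbfb. Shares over all Foxp3 groups were not computed with the FDR limit or the fold ranking.

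In 100 clusters (78.1%) every one of the 4 Elf1 and Ets1 maps was represented, and in 33 (25.8%) Cbfb was too. Over all Foxp3 groups these shares were 35.9% and 7.04%. A further 16 clusters had 3 of the Elf1 and Ets1 lists, 7 had 2 and 5 had 1. No cluster lacked all 4. Elf1 and Ets1 were both present in 108 clusters (84.4%) in Treg and in 109 (85.2%) in CD4, beside 43.0% and 55.7% of all groups. As the windows of clusters are longer, these shares are not matched either.

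In the top 10000 lists most clusters held no more Elf1 or Ets1 positions than they had peaks. The median was 2 positions per cluster for each of the 4 Elf1 and Ets1 lists and 0 for Cbfb. With every position at an FDR of at most 0.01 the median was 4 for each of the 4 lists, above the median of 3 peaks per cluster. The mean was 1.98 for Treg Elf1, 2.01 for CD4 Elf1, 2.70 for Treg Ets1, 2.94 for CD4 Ets1 and 0.352 for Treg Cbfb. Counts of Elf1 reached 7 in a cluster and counts of Ets1 16 in each cell type, while no cluster held more than 2 Cbfb positions. Elf1 positions outnumbered the Foxp3 peaks in 5 clusters in Treg and in 2 in CD4, Ets1 positions in 19 and 27. In total the windows held 253 Treg Elf1 positions (exact Poisson 95% interval 223 to 286), 257 CD4 Elf1 (227 to 290), 345 Treg Ets1 (310 to 383), 376 CD4 Ets1 (339 to 416) and 45 Treg Cbfb (32.8 to 60.2). These totals were 2.53, 2.57, 3.45, 3.76 and 0.45% of the respective top 10000.

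**Figure D3:**
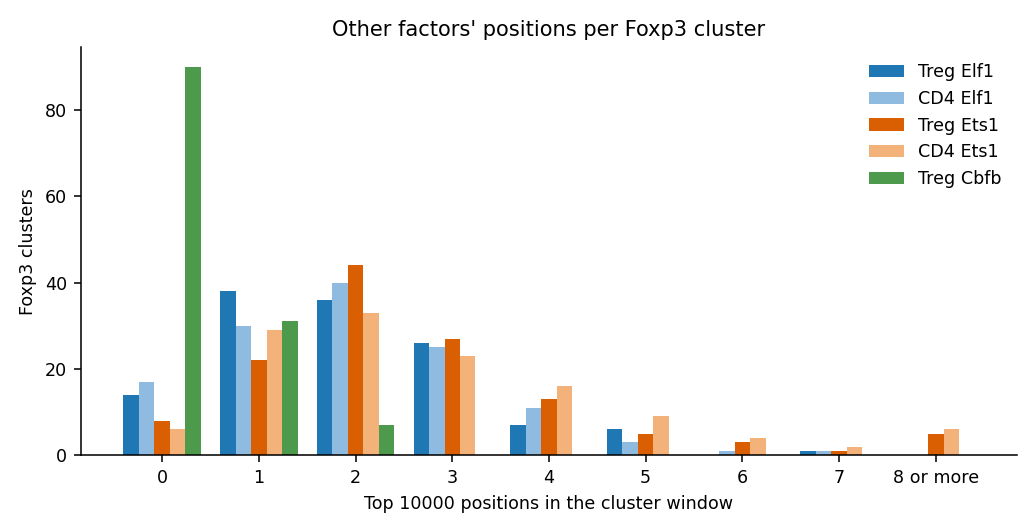
Number of the 128 Foxp3 clusters (vertical) by the number of top 10000 positions in their window (horizontal), for each of the 5 libraries. Cbfb was absent from 90 clusters, Elf1 counts ended at 7, and Ets1 counts of 8 or more occurred in 5 clusters in Treg and 6 in CD4.

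Ets1 more often than Elf1 lay between the Foxp3 peaks of a cluster. Of the Treg Ets1 positions in the windows, 99 (28.7%, 24.0 to 33.8) were more than 200 bp from every member interval, and of those in CD4 89 (23.7%, 19.5 to 28.3). For Elf1 these numbers were 33 (13.0%, 9.15 to 17.8) in Treg and 31 (12.1%, 8.34 to 16.7) in CD4, and for Cbfb 8 of 45. The member intervals with their 200 bp flanks covered 243 kb of the 1093.5 kb of window. Ets1 positions between peaks were found in 46 clusters in Treg and in 37 in CD4, with at most 11 and 9 in a cluster.

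Counted over whole windows, the number of positions per Foxp3 peak was highest in the clusters with 5 or more peaks for each Elf1 and Ets1 list. For Cbfb it was lowest there. It was 0.536 in clusters with 3 peaks, 0.543 in those with 4 and 0.641 in those with 5 or more for Treg Elf1, and 0.527, 0.564 and 0.679 for CD4 Elf1. For Treg Ets1 the values were 0.814, 0.593 and 0.885, with no steady order, and for CD4 Ets1 0.810, 0.736 and 1.04. Among the clusters with 5 or more peaks, a single cluster held 16 positions of each Ets1 list, and the Ets1 values without it were not computed. For Cbfb the values per peak were 0.114, 0.0857 and 0.0769. In the 16 clusters of at most 1 kb, where intervals share positions, the values were 0.42 for Treg Elf1, 0.40 for CD4 Elf1, 0.38 for Treg Ets1 and 0.42 for CD4 Ets1. In the 37 clusters over 10 kb they were 0.645, 0.671, 0.923 and 1.01.

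Counted peak by peak, members of clusters had these factors about as often as other Foxp3 peaks. A top 10000 position within 200 bp of the interval was present at 247 of the 455 members for Treg Elf1 (54.3%, 49.6 to 58.9), beside 54.4% of all Foxp3 peaks and 53.9% (51.5 to 56.2) of single peaks. For CD4 Elf1 the members numbered 255 (56.0%, 51.3 to 60.7), beside 59.2% of all and 60.0% (57.7 to 62.3) of single peaks. For Treg Ets1 they numbered 278 (61.1%, 56.4 to 65.6), beside 61.0% of all and 59.2% (56.8 to 61.5) of single peaks. For CD4 Ets1 they numbered 315 (69.2%, 64.8 to 73.4), beside 70.9% of all and 70.4% (68.2 to 72.5) of single peaks. For Treg Cbfb they numbered 50 (11.0%, 8.27 to 14.2), beside 11.1% of all and 10.4% (9.0 to 11.9) of single peaks.

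With the top 10000 positions within 200 bp, the difference between members and single peaks had an interval that included 0 for each of the 5 libraries. It was 0.422 percentage points for Treg Elf1 (-4.83 to 5.63), -3.97 for CD4 Elf1 (-9.19 to 1.20), 1.93 for Treg Ets1 (-3.25 to 7.0), -1.16 for CD4 Ets1 (-6.10 to 3.59) and 0.611 for Treg Cbfb (-2.50 to 4.13). A position shared by overlapping intervals counts for each of them. With overlapping Foxp3 intervals joined, the difference was negative in each library, with intervals that still included 0. It was then -2.56 (-8.23 to 3.09) for Treg Elf1, -4.40 (-10.1 to 1.18) for CD4 Elf1 and -1.19 (-6.84 to 4.34) for Treg Ets1. For CD4 Ets1 it was -1.88 (-7.26 to 3.25) and for Treg Cbfb -2.28 (-5.30 to 1.30). Some other settings gave intervals without 0. For CD4 Elf1 the difference was -7.07 (-12.3 to -1.81) for positions within the interval itself and -6.59 (-11.3 to -1.63) with lists of 5000 positions. For Treg Ets1 it was -5.30 (-10.4 to -0.080) within the interval, 7.2 (2.18 to 12.0) within 500 bp and 4.75 (0.262 to 9.15) with a gap of 20 kb, so its direction depended on the distance allowed. For Cbfb it was 4.82 (0.645 to 9.67) with a gap of 5 kb. All these intervals treat peaks as independent, which neighbours in a cluster are not, so they are too narrow. Peaks in clusters of 2 had a Treg Ets1 position in 65.8% of cases (62.0 to 69.4) and a CD4 Ets1 position in 73.6% (70.0 to 76.9). Members at the ends of a cluster and members inside it had close shares, for example 55.1% and 53.3% for Treg Elf1 and 71.1% and 66.8% for CD4 Ets1.

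**Figure D4:**
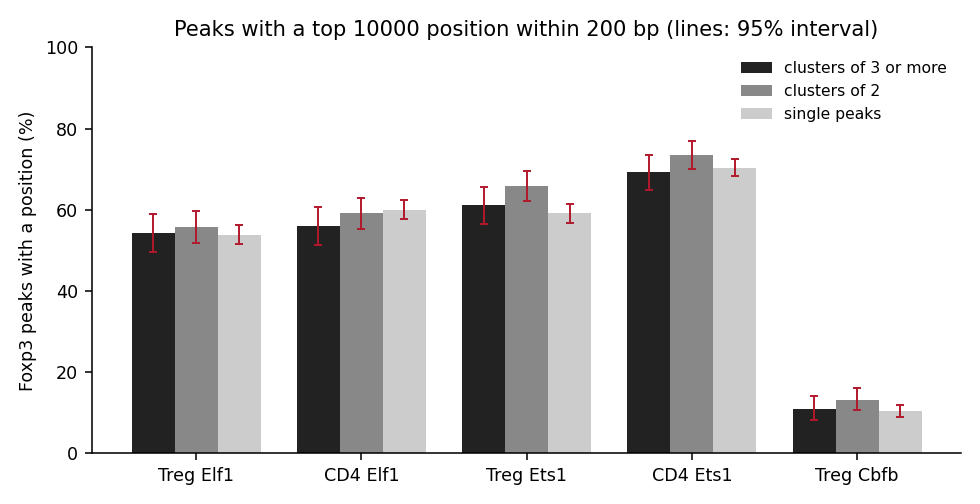
Share of Foxp3 peaks (vertical, %) with a top 10000 position within 200 bp of the interval, for members of clusters of 3 or more, members of clusters of 2 and single peaks, in each of the 5 libraries. Lines give the exact 95% interval, which overlaps between members and single peaks in every library.

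A position from 1 or more of the 4 Elf1 and Ets1 maps was present at 409 members (89.9%, 86.7 to 92.5), beside 89.7% of all Foxp3 peaks, and at least 1 of the 5 lists at 412, beside 90.1%. Positions from all 4 were present at 124 members (27.3%), beside 29.1% of single peaks. In 87 of the 128 clusters every member had Elf1 or Ets1 from at least 1 list. The share of all Foxp3 groups for which this held was not computed. The 43 members with no position of any library were spread over 39 clusters, and 37 of them had a position with an FDR of at most 0.01 outside the top 10000.

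Ets1 had a higher median enrichment at members than at single peaks, while the Elf1 medians were closer. The fold enrichment is the authors' value for each position, and its scale differs between libraries, so members and single peaks are compared within each library. At members with a CD4 Ets1 position the highest-scoring position had a median of 11.1-fold (order-statistic 95% interval 10.4 to 12.0, 315 peaks), against 9.50-fold (8.98 to 9.88, 1248 peaks) at single peaks. Peaks in clusters of 2 had 11.4-fold (10.4 to 12.4). For Treg Ets1 the medians were 7.32-fold (6.79 to 8.39) at members, 6.79-fold (5.99 to 7.32) in clusters of 2 and 6.56-fold (5.99 to 6.88) at single peaks. For Treg Elf1 members and single peaks had 15.5-fold (13.7 to 17.1) and 15.6-fold (14.3 to 16.6), and for CD4 Elf1 16.3-fold (14.9 to 18.2) and 17.5-fold (16.2 to 18.2). Cbfb had 4.85-fold (4.04 to 7.84) and 4.94-fold (4.51 to 5.75). On the log2 scale the ratio of the member to the single-peak median was 0.23 for CD4 Ets1 and 0.16 for Treg Ets1. Only for CD4 Ets1 did the intervals of members and single peaks not overlap. The log2 ratio was -0.01 for Treg Elf1, -0.10 for CD4 Elf1 and -0.02 for Cbfb.

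The median distance of a position from the Foxp3 peak centre was larger at members than at single peaks in each Elf1 and Ets1 list, with intervals that did not overlap only for Treg Ets1. It was 59 bp (49 to 69) against 46 bp (42 to 51) for Treg Elf1 and 71.5 bp (61 to 79) against 54 bp (50 to 58) for Treg Ets1. In CD4 it was 47 bp (39 to 53) against 39 bp (37 to 42) for Elf1 and 46 bp (37 to 54) against 42 bp (39 to 44) for Ets1. In clusters of 2 the medians were 60 and 45 bp for Elf1 in Treg and CD4 and 66 and 51 bp for Ets1, so they also exceeded those of single peaks. A position shared by overlapping intervals cannot be central to both, and its part in this difference was not tested.

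The Treg and CD4 maps gave similar counts in most clusters. For Elf1, 37 clusters held more positions in Treg, 36 more in CD4 and 55 the same number, and the counts differed by at most 1 in 111 clusters. For Ets1, 39 clusters held more in Treg, 57 more in CD4 and 32 the same number, with a difference of at most 1 in 96. Of the clusters with unequal counts, 49.3% (37.4 to 61.3) held more Elf1 in CD4 and 59.4% (48.9 to 69.3) more Ets1 in CD4, and both intervals include equal shares. With lists of 5000 positions the Ets1 share was 40% (28.5 to 52.4), and with 20000 it was 65.6% (55.0 to 75.1). Joining overlapping Foxp3 intervals, a setting chosen after seeing the data, gave 61.7% (50.3 to 72.3) for Ets1. The Elf1 share was 46.4% (33.0 to 60.3) with 5000 positions and 71.8% (61.0 to 81.0) with 20000. With an FDR of at most 0.01 it was 36.1% (26.6 to 46.5) for Elf1 and 57.7% (47.3 to 67.7) for Ets1. For both factors the list at that limit was longer in Treg than in CD4, so these shares do not come from lists of equal length. The direction therefore depended on the list used. Across the 128 clusters, which share libraries and differ in window length, Treg and CD4 counts had a Spearman correlation of 0.71 for Elf1 and 0.61 for Ets1, and Elf1 and Ets1 counts one of 0.30 in Treg and 0.46 in CD4.

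Elf1 or Ets1 was present in both cell types in 122 clusters (95.3%, 90.1 to 98.3), beside 73.4% of all Foxp3 groups, most of which have shorter windows. It was present only in Treg in 4 clusters (3.12%, beside 7.53% of all groups) and only in CD4 in 2 (1.56%, beside 9.96%). These 6 are named here after their values were seen. The Treg-only clusters had 3 peaks each. Those on chromosome 1 from 21323412 to 21324160 and from 69815453 to 69815930 each held 1 Treg Elf1 position. The cluster on chromosome 2 from 52170364 to 52174981 also held 1 Treg Elf1 position, and the one on chromosome 11 from 45897007 to 45903828 held 3 Treg Ets1 positions. The CD4-only clusters lay on chromosome 17. The one from 35342234 to 35355732 held 2 CD4 Elf1 and 1 CD4 Ets1 positions, and the one from 84515684 to 84519174 held 2 CD4 Ets1 positions. At an FDR of at most 0.01 the Treg list of each factor was longer than its CD4 list. Both CD4-only clusters then held Treg positions too, 4 of Elf1 in each. Of the Treg-only ones, only the cluster on chromosome 1 from 21323412 had no CD4 position at that limit, beside 2 Treg Elf1 and 3 Treg Ets1 positions.

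The cluster with the most Foxp3 peaks lay on chromosome 6 between 48668562 and 48696202. Its 8 peaks spanned 27440 bp, with gaps from 128 to 7104 bp, and the next Foxp3 peak was 10446 bp away, just beyond the limit. Counts in the named clusters refer to the top 10000 positions unless an FDR is given. By this count it held 7 Treg Elf1 positions, 4 CD4 Elf1, 10 Treg Ets1, 9 CD4 Ets1 and 1 Cbfb. This was the highest Treg Elf1 count of any cluster and the largest surplus of Treg over CD4 Elf1. Of the 8 peaks, 4 had a Treg Elf1 position and 4 a CD4 Elf1 position, 6 a Treg Ets1 and 7 a CD4 Ets1 position. The highest-scoring Elf1 positions of the 2 cell types lay 4 bp apart, at 48677863 in Treg (29.6-fold) and 48677867 in CD4 (22.6-fold). The single Cbfb position, at 48683095 (4.04-fold), lay at the same peak as the highest-scoring Ets1 positions of Treg (19.6-fold) and CD4 (17.9-fold). The peak from 48687125 to 48687325 had no top 10000 position of any library. At an FDR of at most 0.01 the window of this cluster held 20 Elf1 positions in each cell type, so the surplus in Treg was not seen there.

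The cluster with 7 peaks was the longest, on chromosome 9 between 32295128 and 32326226. Its gaps ran from 2304 to 8591 bp, so no intervals overlapped. It held 5 Treg Elf1, 5 CD4 Elf1, 5 Treg Ets1 and 6 CD4 Ets1 positions and no Cbfb. The highest-scoring positions had 17.8-fold enrichment for Treg Elf1 and 20.1-fold for CD4 Elf1, where the medians of those top 10000 lists were 13.2 and 15.6. They had 4.85-fold for Treg Ets1 and 7.46-fold for CD4 Ets1, below the medians of those lists, 5.99 and 8.50. The highest-scoring position was not always the one with the highest fold enrichment. The highest fold enrichment in this cluster was 21.4 for CD4 Ets1, above the list median, and 5.42 for Treg Ets1, still below it. For Elf1 it was 17.8 in Treg and 32.6 in CD4. It lay on the same chromosome, 177452 bp before the start of the Treg Ets1 cluster with 14 positions.

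Among the 3 clusters with 6 peaks, that on chromosome 11 between 87558546 and 87573418 stood out for Ets1. Within 14672 bp it held 16 Treg Ets1 and 16 CD4 Ets1 positions, the highest counts of any Foxp3 cluster, beside 4 Elf1 positions in each cell type and no Cbfb. Of its Treg Ets1 positions, 12 were in the list shortened to the length of the Foxp3 list, and 11 lay between the Foxp3 peaks. The highest-scoring Ets1 positions were at 87569118 in Treg (266-fold) and at 87569116 in CD4 (475-fold), the highest fold enrichment in each of these Ets1 lists. They were more than 200 bp from any member: the nearest Foxp3 interval ended at 87568360. At the members themselves, the highest-scoring Ets1 position reached 25.2-fold in Treg and 26.5-fold in CD4.

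The other clusters with 6 peaks held fewer Ets1 positions. On chromosome 11 between 52113248 and 52132310, the top 10000 gave no Treg Elf1 and only 1 CD4 Elf1 position, beside 2 Treg Ets1, 5 CD4 Ets1 and 1 Cbfb. At an FDR of at most 0.01 its window held 5 Treg Elf1 and 8 CD4 Elf1 positions. In this cluster 3 peaks, at gaps of 114 and 150 bp, overlapped each other and shared the Cbfb position at 52127839 (4.85-fold) and Ets1 positions of 6.44-fold in Treg and 22.5-fold in CD4. The cluster on chromosome 13 between 51849516 and 51872036 had the largest surplus of CD4 over Treg Elf1, with 6 CD4 and 3 Treg positions. CD4 Elf1 was present at 5 of its 6 peaks and Treg Elf1 at 2. It also held 3 Treg Ets1, 2 CD4 Ets1 and 2 Cbfb positions. At an FDR of at most 0.01 its window held 11 Treg and 9 CD4 Elf1 positions, so the surplus in CD4 was not seen there.

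**Figure D5:**
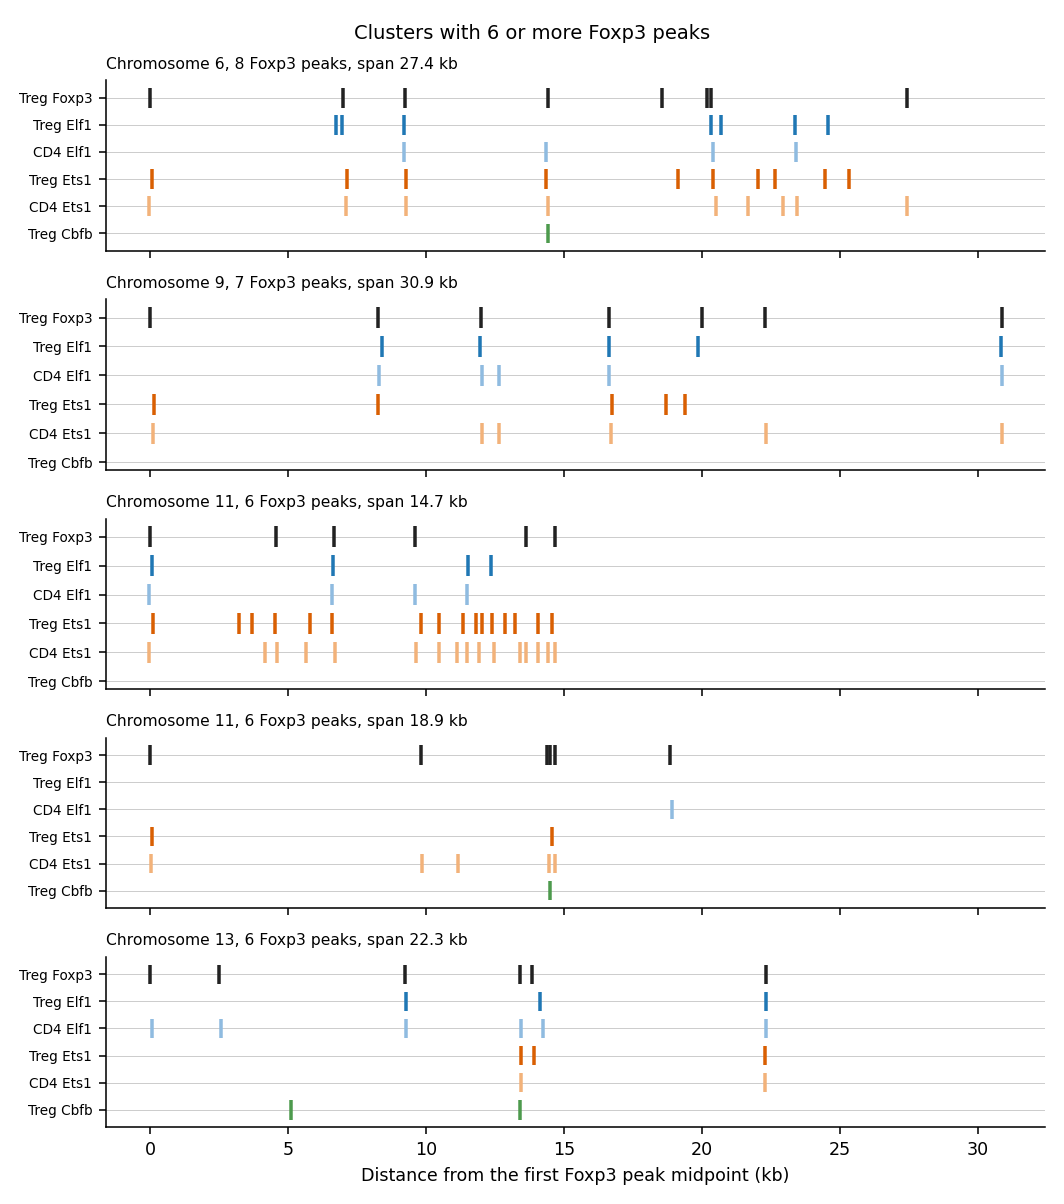
Foxp3 peak midpoints and top 10000 positions of the 5 libraries in the 5 clusters with 6 or more Foxp3 peaks, by distance from the first Foxp3 midpoint (kb, horizontal). Each tick is a peak or position. The third panel shows the run of Ets1 positions between Foxp3 peaks, and the fourth panel shows no Treg Elf1 tick.

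The 5 shortest clusters with 5 peaks varied in the same way. On chromosome 3 between 96360939 and 96371340, 9 Treg Ets1 and 10 CD4 Ets1 positions stood beside 3 Elf1 positions in each cell type, and at the peak starting at 96361723 all 4 lists had enrichments from 21.5-fold (Treg Elf1) to 38.0-fold (CD4 Ets1). On chromosome 13 between 24691522 and 24709936, Ets1 reached 81.9-fold in Treg and 147-fold in CD4 at the last peak, while Elf1 had 2 positions in Treg and 3 in CD4. On chromosome 9 between 44788466 and 44795400, all 5 peaks had a CD4 Ets1 position but only 1 had a Treg Ets1 position. On chromosome 9 between 43825992 and 43842242 there were 4 Elf1 positions in each cell type, 3 Treg Ets1 and 5 CD4 Ets1. On chromosome 19 between 53964160 and 53975050 the top 10000 gave no CD4 Ets1 position, beside 1 Treg Ets1, 2 Treg Elf1 and 4 CD4 Elf1. At an FDR of at most 0.01 that window held 5 CD4 Ets1, 1 Treg Ets1, 9 Treg Elf1 and 7 CD4 Elf1 positions. None of these 5 clusters held a top 10000 Cbfb position.

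Some smaller clusters carried the extremes of single lists. The cluster with the most CD4 Elf1 positions, 7, lay on chromosome 19 between 53258788 and 53273509 and had 4 peaks, each with Elf1 in both cell types. Elf1 there reached 66.1-fold in Treg and 81.2-fold in CD4, and Ets1 41.9-fold and 66.8-fold. The largest surplus of Treg over CD4 Ets1 was found on chromosome 11 between 86392540 and 86406811, with 8 and 4 positions in the whole window. Of its 3 peaks, only 1 had a Treg Ets1 position and 2 had a CD4 Ets1 position. The highest-scoring Ets1 positions had 88.5-fold enrichment in Treg and 40.1-fold in CD4. The largest surplus of CD4 over Treg Ets1, 4 positions, was shared by 2 clusters. The shorter lay on chromosome 10 between 79479292 and 79487204, where all 4 peaks had a top 10000 CD4 Ets1 position and none had a Treg Ets1 position. At an FDR of at most 0.01 its window held 9 CD4 and 6 Treg Ets1 positions. The other, on chromosome 6 between 48647155 and 48658316, had 3 peaks and is named here after its values were seen. Its window held 9 CD4 and 5 Treg Ets1 positions.

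Cbfb reached its highest count of 2 in 7 clusters. The shortest of them lay on chromosome 17 between 29530648 and 29532677, with 3 peaks within 1829 bp. Its Cbfb positions had 9.93-fold and 3.56-fold enrichment, each at a different peak, beside 3 Treg Ets1, 1 CD4 Ets1, 1 Treg Elf1 and no CD4 Elf1 position. The longest cluster with 3 peaks, on chromosome 2 between 43594438 and 43612476, had gaps of 8120 and 9718 bp and a further Foxp3 peak 11078 bp away. Its middle peak had all 4 Elf1 and Ets1 positions, the first peak had CD4 Elf1 only, and the last had no top 10000 position of any library.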

How the data were processed

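The submitters' processing notes name Bowtie 0.12.7 and build mm9. The peak caller, its thresholds and its control are not given in the sources used here. Replicates were combined by the authors, who deposited 1 Foxp3 list, per the labels, with intervals 200 bp wide and no score. For each of the 5 other libraries they deposited single-base positions. Each position carries a fold enrichment, a score and a false discovery rate, which is a q-value, per the file headers. Read depth is unknown, so lists were cut to equal length: 10000 positions by score for counts, 2886 for clusters. Ties at the last score (186 positions in Treg Elf1, 32 in Treg Cbfb) were broken by fold enrichment.

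Peaks were chained at midpoints at most 10 kb apart, and chains of 3 or more kept. Shares have exact Clopper-Pearson and counts exact Poisson 95% intervals, medians order-statistic intervals, and differences of shares intervals combined from both. Log2 ratios of medians have the interval of the member median set against a fixed single-peak median. All cover counting error only. Named clusters were those with 6 or more peaks, 5-peak clusters by shorter span until 10 were named, the shortest and longest with 3 peaks, and the extremes of each list. The members, lists and rules were chosen with earlier results of these data known. The chaining and counting were checked on simulated lists. Planned gene names and motif searches were not run, since no mm9 genome or annotation was used. Python 3.11.15, numpy 2.4.6, pandas 2.3.3, scipy 1.17.1 and matplotlib 3.10.9 were used.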

Additional observations from a re-analysis of the deposited data

How the results depend on the processing

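Of 235 values from the alternatives, 183 stayed within 1.5 times the count, or within the interval, of the value reported. Apart from the pooled Foxp3 list, each list came from 1 library of unknown depth. No paired analysis was possible because the authors combined the Foxp3 replicates into 1 list and each other list came from 1 library. For the same reason no replicate could be left out. Joining positions under 200 bp apart changed no cluster count of the other lists. The Foxp3 clusters numbered 86 with a gap of 5 kb and 179 with 20 kb.

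With a gap of 20 kb the other lists gave 35 clusters for Treg Elf1, 26 for CD4 Elf1 and 13 for Cbfb, and with 5 kb both Elf1 lists gave 7. By fold enrichment Treg Elf1 gave 20, Treg Ets1 47 and Cbfb 3.

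Positions in the Foxp3 clusters, in the order Treg Elf1, CD4 Elf1, Treg Ets1, CD4 Ets1 and Cbfb, numbered 651, 588, 632, 653 and 200 with an FDR of at most 0.01, 442, 445, 595, 627 and 89 with a gap of 20 kb, and 89, 146, 100, 174 and 12 when ranked by fold enrichment. With a gap of 5 kb the first 4 were 147, 139, 191 and 209. With the 5000 highest positions Treg Elf1 had 140, CD4 Elf1 131, CD4 Ets1 219 and Cbfb 25, and with the 20000 highest CD4 Elf1 had 407 and Cbfb 70.

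Clusters with a position numbered 59 for Treg Elf1, 50 for Treg Ets1, 79 for CD4 Ets1 and 12 for Cbfb by fold enrichment. With a gap of 5 kb, which leaves 86 clusters, they numbered 72 for CD4 Elf1, 77 for Treg Ets1 and 81 for CD4 Ets1. For Cbfb they numbered 22 with the 5000 highest, 99 with an FDR of at most 0.01 and 66 with a gap of 20 kb.

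The member minus single difference for Treg Ets1 was 7.2 points within 500 bp, -5.30 within the interval and -4.71 against clusters of 2, the last added after seeing the data. For Treg Elf1 it was -5.08 within the interval, and for Cbfb 4.82 with a gap of 5 kb. The log2 ratio of median fold enrichment for CD4 Elf1 was -0.29 with the 5000 highest positions. For Ets1 it was positive in both cell types under every alternative run. Intervals of this ratio are those of the member median alone, with the single-peak median held fixed, so they are too narrow. The Treg Ets1 interval included 0 with the 5000 highest positions (-0.038 to 0.363). It reached 0 without the cluster with the most peaks (0 to 0.354) and with overlapping Foxp3 intervals joined (0 to 0.399). The share of unequal clusters with more in CD4 was 71.8% for Elf1 with the 20000 highest, 36.1% for Elf1 with an FDR of at most 0.01, and 40% for Ets1 with the 5000 highest. The causes of these shifts were not tested.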
